A study of Mus musculus with 60 samples.

Results

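The livers compared here came from male CC042/GeniUnc mice, an inbred strain of the Collaborative Cross, kept for 40 weeks (5 animals) or 20 weeks (5 animals) on an obesogenic diet high in fat and sugar (HF/HS). They are 10 of the 60 libraries of the series and were chosen by their labels alone (sex, diet and weeks), with no measured value. The diet was rich in milk fat, cholesterol and sucrose. Set beside them were males fed the control diet, matched for ingredients but with little fat and less sucrose, for 40 weeks (5 animals) or 20 weeks (5 animals), and HF/HS females at 40 weeks (5 animals) and 20 weeks (5 animals). All animals were of the 1 strain, were otherwise untreated per the labels, and were killed at their time point, so no animal was followed over time. The sources used here give no age for the animals, and the longer time on the diet and the greater age of the 40-week animals cannot be told apart within the HF/HS males. The control males cover the same interval of time.

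A long HF/HS diet loads mouse liver with lipid, a state that can pass into inflammation, fibrosis and expansion of bile duct cells. Hepatocytes store surplus fatty acids as triglyceride in droplets coated by perilipin and CIDE proteins, and burn them in mitochondria and peroxisomes under control of PPARα. When secretory proteins fold poorly in the endoplasmic reticulum (ER), the unfolded protein response raises ER chaperones through ATF6, XBP1 and ATF4. Much of the liver transcriptome also follows the time of day, through a feedback loop in which ARNTL with CLOCK or NPAS2 drives Per and Cry genes. Sex differences of rodent liver depend on the pulsed male and the more steady female pattern of growth hormone.

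Total RNA depleted of ribosomal RNA was sequenced, and each library had 1 whole-number count per gene in the deposited table. Library totals over the series ran from 10923963 to 20942463 counts. Of 24982 gene entries, 14180 passed the filter on low counts and were tested with edgeR's quasi-likelihood test. Calls required p under 0.05 after Benjamini-Hochberg adjustment over these genes, with no minimum fold. Values are CPM, counts scaled to library size with TMM factors, fold changes are log2 with their standard error (SE), 40 over 20 weeks, and per-animal values follow the order of the animal numbers (512, 513, 521, 522 and 523 at 40 weeks, and 261, 271, 411, 412 and 413 at 20 weeks). The 18 hepatocyte markers all had counts and summed to 52300 to 54900 CPM per library at 40 weeks, against 51600 to 57500 CPM at 20 weeks. Pancreas markers, a neighbouring tissue, summed to 9.33 to 11.9 CPM at 40 weeks, against 9 to 68.6 CPM at 20 weeks, and 5 and 4 of the 19 had no count.

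Libraries at 20 weeks were more spread than those at 40 weeks. On the first principal component of the 20 male libraries at 20 and 40 weeks, which held 44.8% of the variance, the HF/HS males at 40 weeks lay between 45.2 and 51.53. At 20 weeks animals 411 and 413 lay at 31.35 and 36.67, while animals 261, 271 and 412 lay at -2.692, 4.384 and -0.5859. A further axis was the clock. The first component of the clock genes, which held 74.3% of their variance, lay between 1.58 and 1.91 at 40 weeks, against -0.94, 1.46, -0.53, 0.60 and 0.71 at 20 weeks. Control males showed the same separation, 1.44 to 2.01 at 40 weeks against -0.87 to 0.79 at 20 weeks. The hour at which livers were taken is not stated in the labels. A fit with this component as a covariate, called the clock-adjusted fit below, and a fit without the 20-week animals whose number is under 300 (261 and 271 among the HF/HS males) are given beside the named genes whose call between 40 and 20 weeks they end. In both groups of males the component did not overlap between 40 and 20 weeks, so the clock-adjusted fit cannot tell the clock from the weeks. A call can end in it although the fold is larger, as for Cidea below. Each library of a comparison was also left out in turn, and lost calls are given with the animal number left out and the log2 value or its range. Such a fit has fewer animals, so a call can be lost with little change of the fold.

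In HF/HS males 2437 genes (17.2% of those tested) were called between 40 and 20 weeks. Of these, 1324 (9.34%) were higher at 40 weeks and 1113 (7.85%) were lower. With a change of at least 2-fold as a further condition, 275 (1.94%) were higher and 91 (0.642%) were lower. The CPM ranges of the 5 animals at 40 weeks and the 5 at 20 weeks did not overlap for 1170 higher (8.25%) and 956 lower genes (6.74%). The median log2 fold change of all genes tested was 0.03. The split between directions was not stable. Lower genes were the more numerous in each of the 10 fits with 1 library left out (611 to 1271 higher and 866 to 1708 lower), and also with RLE size factors (1150 and 1388), DESeq2 (1199 and 1476), no filter (943 and 1225), only the groups compared (1392 and 1604) and small non-coding RNA genes removed before scaling (1082 and 1523). The clock-adjusted fit (478 and 365) and limma voom (2231 and 1736) had more higher genes. The total was 1034 without animals 261 and 271, 1477 without animal 261 alone and 843 in the clock-adjusted fit.

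The genes that rose most were low in liver at 20 weeks. Sptlc3 (chromosome 2, 139493913 to 139637674, mm10, plus strand), a subunit of the serine palmitoyltransferase that opens sphingolipid synthesis, had 2.99, 1.96, 3.14, 1.32 and 3.22 CPM at 40 weeks, against 0.0734, 0, 0.202, 0.0721 and 0.18 CPM at 20 weeks. That is 188 counts summed over the 40-week libraries and 8 over the 20-week libraries, with a log2 fold change of 4.45 ± 0.50 (edgeR adjusted p = 2.38e-06). The control males had 16 counts at 40 weeks and 0 at 20 weeks, and HF/HS females had 0 at both times. Mmp7, the metalloproteinase matrilysin, had 2.21, 1.55, 2.34, 4.57 and 3.16 CPM at 40 weeks, against 0.367, 0.135, 0.472, 0.288 and 0.54 CPM at 20 weeks (log2 fold change 2.90 ± 0.44, edgeR adjusted p = 1.1e-05). Its ranges did not overlap, and animals 411 and 413 were the highest of the 20-week group. Lrtm2, a leucine-rich repeat membrane protein, rose by 3.46 ± 0.50, to 7.18 ± 2.77 CPM at 40 weeks against 0.633 ± 0.333 CPM at 20 weeks (SD, n = 5 each). Further genes of this top set were Sdcbp2 (syntenin-2, log2 fold change 3.04), Folh1 (a glutamate carboxypeptidase, 2.84), Meltf (melanotransferrin, 2.69), Fam83a (2.60), Tmem45b (2.43), Ubd (the ubiquitin-like FAT10, 2.38), Cidea (2.24), Rims4 (2.14) and Tinag (2.12). When single libraries were left out, the call was lost for Cidea without 261 or 412 (1.96 to 2.0), Rims4 without 261, 271 or 412 (1.86 to 1.94) and Tinag without 261 (1.81). The clock-adjusted fit ended the calls of Ubd (2.23), Cidea (2.72) and Tinag (2.52), and the fit without animals 261 and 271 those of Cidea (1.63), Rims4 (1.61) and Tinag (1.41).

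Clock activators and the p53 target Cdkn1a stood among the genes that fell most. Npas2 (chromosome 1, 39193731 to 39363236, mm10, plus strand), a partner of ARNTL in the clock, had 1.69, 1.69, 0.876, 2.77 and 1.58 CPM at 40 weeks, against 28.1, 5.12, 34.9, 16.2 and 13.7 CPM at 20 weeks. Every 40-week animal lay below every 20-week animal (log2 fold change -3.50 ± 0.46, edgeR adjusted p = 4.99e-07). Cdkn1a, which encodes the cell cycle inhibitor p21, had 16, 21.3, 15.8, 36.2 and 23.5 CPM at 40 weeks, against 191, 64.3, 154, 119 and 52.7 CPM at 20 weeks. The groups were again separate (log2 fold change -2.36 ± 0.50, edgeR adjusted p = 0.000774), but the clock-adjusted fold was -0.83 and not called. Others among the 12 largest falls were Rnase2a (an eosinophil-associated ribonuclease, -3.29), Slc35f1 (-2.50), Arntl (-2.43), Serpina9 (-2.26), Sult5a1 (a sulfotransferase, -2.24), Obp2a (a lipocalin, -2.04) and Nfil3 (-1.96). The pseudogenes Cyp2c53-ps (-2.67), Serpina4-ps1 (-2.43) and Adh6-ps1 (-2.02) were also in this set. They lie in families of near-identical genes that can share reads, so their values are uncertain, as are those of single Cyp2c, Cyp4a, Mup, Gsta, Acot, Serpina and Hspa1 genes below. The call was lost for Serpina9 without 261 (-2.10) and Slc35f1 without 412 (-2.0), and without animals 261 and 271 for Serpina4-ps1 (-1.66) and Serpina9 (-1.90). In the clock-adjusted fit Rnase2a (-2.68), Serpina9 (-2.49), Sult5a1 (-1.96), Obp2a (-1.74) and Nfil3 (-0.49) were not called.

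**Figure D1:**
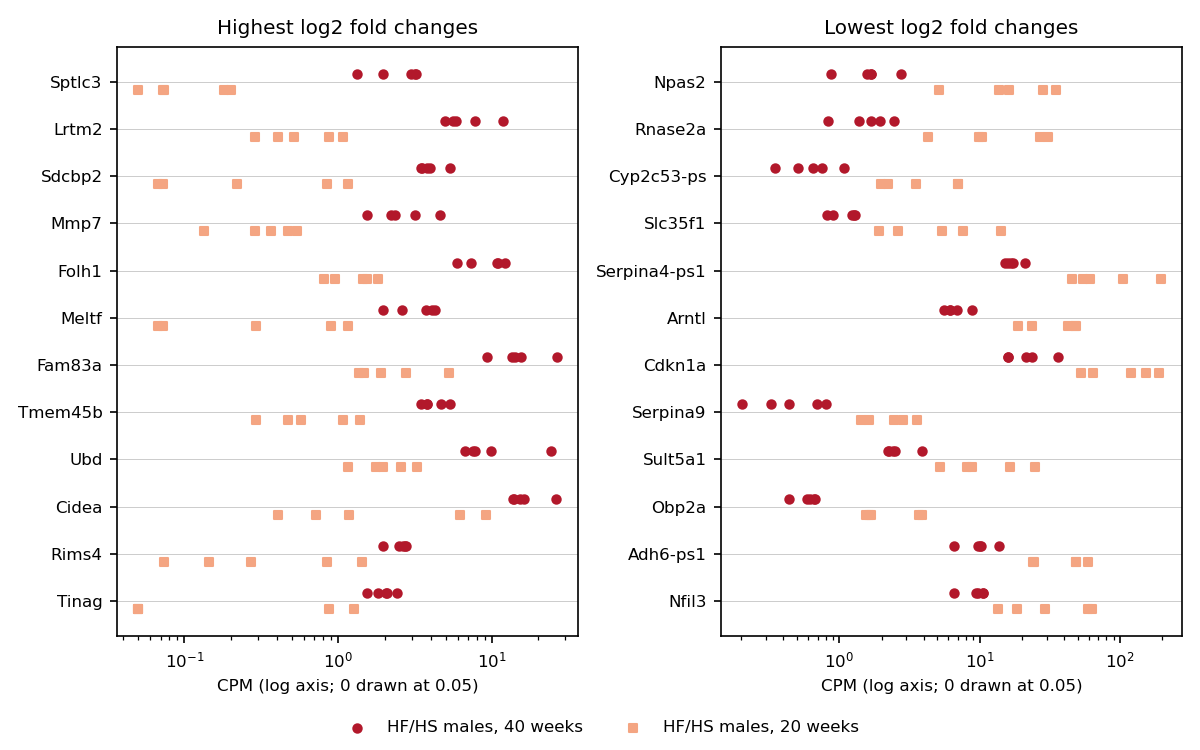
CPM (log axis) of the 12 genes with the largest rise (left) and the 12 with the largest fall (right) in HF/HS males, 1 point per animal, 40 weeks (dark circles) above 20 weeks (light squares), with 0 drawn at 0.05. The ranges of the 2 times do not overlap for any of the 24 genes, a condition of the choice, and the rising genes lie below 10 CPM in every 20-week animal.

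ER chaperones and other genes of the stress response fell. Of 27 tested members of the ER and integrated stress list, 16 were called lower, 59.3% of the list against 7.85% of all genes, and 23 had a fold below 0. The median log2 fold change was -0.50, against 0.03 over all genes. The list level (mean log2 CPM over the members) was 5.47, 5.4, 5.46, 5.36 and 5.37 at 40 weeks, against 6.23, 5.85, 6.03, 5.97 and 5.67 at 20 weeks. The groups did not overlap, and animal 413 was the nearest to the 40-week animals. The count was 15 to 18 when any 1 library was left out, 15 without animals 261 and 271 and 13 in the clock-adjusted fit.

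Creld2 (chromosome 15, 88819646 to 88826683, mm10, plus strand), an ER protein induced by misfolding, had 32.2, 24.6, 28.5, 22.5 and 22.7 CPM at 40 weeks, against 125, 76.9, 71.9, 126 and 50.1 CPM at 20 weeks. No 40-week animal reached the lowest 20-week one, animal 413, and the log2 fold change was -1.78 ± 0.28 (edgeR adjusted p = 2.61e-05). Manf, a secreted neurotrophic factor of the same response, had 58.1, 52.9, 57.8, 54.6 and 48.8 CPM at 40 weeks, against 204, 145, 150, 184 and 99.7 CPM at 20 weeks (log2 fold change -1.52 ± 0.20, edgeR adjusted p = 5.33e-07). Hspa5, the master ER chaperone BiP, had 581, 510, 555, 565 and 467 CPM at 40 weeks, against 1660, 1220, 1120, 1440 and 883 CPM at 20 weeks. It too was lower in 5 of 5 animals (log2 fold change -1.24 ± 0.16, edgeR adjusted p = 2.4e-07). Dnajb9, a BiP co-chaperone, fell by 1.29 ± 0.23, Sdf2l1 by 1.28 ± 0.27 and the chaperone Hyou1 by 1.06 ± 0.19 on the log2 scale. Chac1, a glutathione-degrading enzyme downstream of ATF4, fell by 1.37 ± 0.36 and lost the call in the clock-adjusted fit (-1.17) and without animals 261 and 271 (-1.09). The ER members Hsp90b1, Pdia4, Pdia6, Calr, Dnajb11, Dnajc3 and Edem1 were called lower with folds of -0.80 to -0.48. Among transcription factors of the list, Atf5 was called lower (-0.23), but not in the clock-adjusted fit (-0.13). Atf4 was at -0.32 ± 0.12, Ddit3 at -0.38 ± 0.25, Asns at 0.43 ± 0.40 and Atf3 at 0.41 ± 0.34, and none of these passed (edgeR adjusted p = 0.0544, 0.306, 0.494 and 0.431). Asns and Atf3 were among the only 4 of the 27 members with a fold above 0.

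The ATF6 and XBP1 response element holds the letters CCACG, so the 250 bases before the start of 4 of the falling chaperone genes are shown, from RefSeq on GRCm38.p6, 5′ to 3′ on the gene's strand. Capitals mark CCACG or its reverse complement CGTGG.
Creld2, chr15:88819396-88819645, plus strand: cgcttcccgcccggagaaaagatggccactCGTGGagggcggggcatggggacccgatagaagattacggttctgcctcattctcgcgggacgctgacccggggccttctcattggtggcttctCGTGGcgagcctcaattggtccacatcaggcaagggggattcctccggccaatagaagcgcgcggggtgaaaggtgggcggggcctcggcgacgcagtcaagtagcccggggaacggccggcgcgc
Dnajb9, chr12:44210069-44210318, minus strand: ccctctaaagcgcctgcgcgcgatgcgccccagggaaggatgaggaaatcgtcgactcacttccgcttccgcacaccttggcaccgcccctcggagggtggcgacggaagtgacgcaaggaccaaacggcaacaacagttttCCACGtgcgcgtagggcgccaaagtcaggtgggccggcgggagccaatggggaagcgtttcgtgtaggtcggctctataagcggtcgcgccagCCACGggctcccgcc
Sdf2l1, chr16:17132384-17132633, minus strand: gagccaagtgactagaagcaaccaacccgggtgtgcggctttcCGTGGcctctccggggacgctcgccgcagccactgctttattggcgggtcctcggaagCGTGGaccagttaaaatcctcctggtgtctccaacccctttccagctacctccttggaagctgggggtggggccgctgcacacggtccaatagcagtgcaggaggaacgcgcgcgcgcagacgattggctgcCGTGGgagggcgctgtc
Hspa5, chr2:34771840-34772089, plus strand: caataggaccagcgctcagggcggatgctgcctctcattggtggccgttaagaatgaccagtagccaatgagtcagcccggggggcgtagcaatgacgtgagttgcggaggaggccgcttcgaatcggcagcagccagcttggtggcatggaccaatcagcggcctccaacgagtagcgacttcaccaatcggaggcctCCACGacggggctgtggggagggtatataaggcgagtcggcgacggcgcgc
The motif stands 2 times before Creld2 and Dnajb9, 3 times before Sdf2l1 and 1 time before Hspa5. Of the 25 list members with a promoter in the table, 18 (72%) held it, and of the 14 called lower among them 12 (85.7%). Of all 27025 genes with a promoter in the table, 31% held it, so a motif of 5 letters is common by itself. The Dnajb11 promoter did not hold these letters. These are counts of letters and not of bound sites.

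Cytosolic heat shock genes fell with them. Of 18 tested members 11 were called lower (61.1%, against 7.85% of all genes), 17 had folds below 0, and the median log2 fold change was -0.48. Hsph1, an HSP110 chaperone, had 60.1, 51.2, 54.4, 62.6 and 42.8 CPM at 40 weeks, against 221, 153, 144, 196 and 110 CPM at 20 weeks (log2 fold change -1.60 ± 0.27, edgeR adjusted p = 5.33e-05). Its ranges did not overlap, and its call held in all alternatives run. Hspa1b, the inducible HSP70, had 8.13, 5.34, 5.33, 6.24 and 4.42 CPM at 40 weeks, against 83.6, 14.6, 49.5, 21.5 and 6.66 CPM at 20 weeks. Animals 261 and 411 stood far above the other 20-week animals, and animal 413 lay within the 40-week range (log2 fold change -2.57 ± 0.77, edgeR adjusted p = 0.0163). The near-identical Hspa1a followed it (-2.67 ± 0.91), and Dnajb1 fell by 0.82 ± 0.28. Without animal 261 the list had 5 called lower, and in the clock-adjusted fit 1, where Hspa1b stood at -0.93, Hspa1a at 0.0801 and Dnajb1 at 0.000616. Without animals 261 and 271 the list had 5 calls, with Hspa1b (-2.14), Hspa1a (-1.83) and Dnajb1 (-0.66) not among them. The single calls were lost for Hspa1b without 261 (-1.99), Hspa1a without 261, 513, 521, 522 or 523 (-2.78 to -1.63) and Dnajb1 without 261, 411, 512 or 522 (-0.84 to -0.58).

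The p53 targets called were likewise lower, 5 of 18 (27.8%, against 7.85% of all genes), with 13 folds below 0 and a median of -0.33. In control males 4 were higher (22.2%, against 10.4% of all genes) and 1 lower (5.56%, against 12.7%). The difference between the diets was called for 3 of the 18, with a smaller value on HF/HS (16.7%, against 0.846% of all genes). They were Cdkn1a, the p53 ubiquitin ligase gene Mdm2 (-0.37 ± 0.11), Ccng1 (-0.47 ± 0.12), Zmat3 (-0.36 ± 0.11) and Sesn2 (-0.53 ± 0.18), a stress sensor that is also in the ER list. The call of Sesn2 was lost without 411, 412, 521 or 523 (-0.53 to -0.44). In the clock-adjusted fit, where Cdkn1a was not called either, Mdm2 (-0.16) and Sesn2 (-0.14) lost theirs, and Mdm2 (-0.36) did so without animals 261 and 271. Ccng1 had 107 to 125 CPM at 40 weeks, against 140 to 179 CPM at 20 weeks, without overlap. Gdf15, a stress cytokine, had 9.82, 13.2, 9.78, 16.2 and 11.4 CPM at 40 weeks, against 29.5, 22.6, 22.5, 10.9 and 16.1 CPM at 20 weeks, and did not pass (-0.75 ± 0.36, edgeR adjusted p = 0.148).

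Of 21 clock genes, 7 were called lower (33.3%, against 7.85% of all genes) and 6 higher (28.6%, against 9.34%). Of the positive arm, Arntl, Clock and Npas2 were lower. Arntl, which encodes BMAL1, had 6.12, 5.54, 6.13, 8.87 and 6.88 CPM at 40 weeks, against 48.2, 18.9, 47.6, 42.7 and 23.7 CPM at 20 weeks, without overlap (log2 fold change -2.43 ± 0.24, edgeR adjusted p = 7.1e-10). Clock itself fell by 0.67 ± 0.08. The repressor Cry1, a gene that ARNTL drives, fell by 1.04 ± 0.27, and Nfil3, a repressor of D-box genes, by 1.96 ± 0.34. Usp2, a deubiquitinase, had 33.6, 39.1, 36.6, 30.7 and 41.4 CPM at 40 weeks, against 5.29, 22, 5.33, 13 and 6.48 CPM at 20 weeks, and the 40-week animals all lay above the highest 20-week animal, 271 (log2 fold change 1.80 ± 0.35, edgeR adjusted p = 0.00036). Per3 rose by 1.63 ± 0.41, Per2 by 0.64 ± 0.20 and Tef by 0.96 ± 0.26. Dbp, a D-box activator, had 95.9, 121, 100, 83 and 100 CPM at 40 weeks, against 1.62, 74.3, 7.69, 28.6 and 56.5 CPM at 20 weeks, a fold of 1.56 ± 0.61 that missed the threshold (edgeR adjusted p = 0.0664). Its lowest 20-week animals were 261 and 411, the same ones with the highest Hspa1b. Without animal 261 the list had 2 calls higher, and the calls were lost for Per2 without any 1 library but 271, 412, 512 or 522 (0.50 to 0.62) and Tef without 261 (0.77). The clock-adjusted fit, whose covariate is built from these genes, had 0 called higher and 7 lower. In it Usp2 (0.94), Per2 (0.43), Per3 (-0.09) and Tef (-0.17) and, among the genes that fell, Cry1 (-0.22) and Nfil3 (-0.49) were not called. Control males had 7 clock genes called lower (33.3%, against 12.7% of all genes) and 8 higher (38.1%, against 10.4%) over the same interval, with Arntl at -2.16 ± 0.23. The difference between the diets was called by edgeR for 0 of the 21 clock genes, against 2.12% of all genes. A list of this size cannot tell these shares apart.

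**Figure D2:**
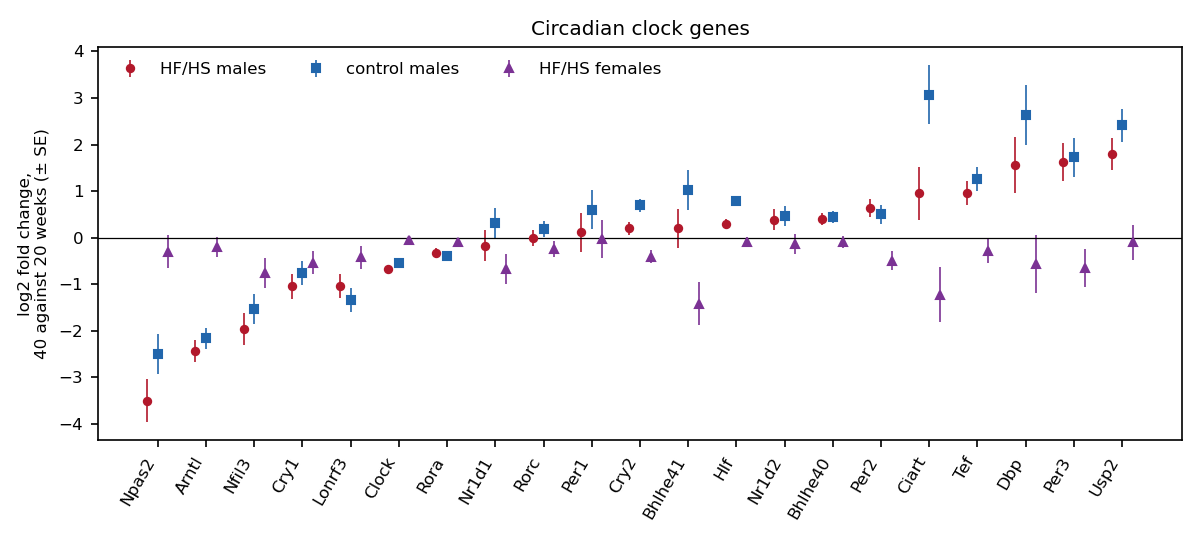
Log2 fold change, 40 against 20 weeks, with its SE, for the 21 clock genes in HF/HS males (circles), control males (squares) and HF/HS females (triangles), ordered by the HF/HS male value. In both groups of males Npas2, Arntl and Nfil3 lie lowest and Usp2, Per3 and Dbp lie well above 0, while the female values lie between -1.42 (Bhlhe41) and -0.03 (Per1).

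Lipid droplet genes were higher at 40 weeks in 8 of 21 tested members (38.1%, against 9.34% of all genes), with a median of 0.50. Cidec, a droplet fusion protein (chromosome 6, 113424634 to 113435760, mm10, minus strand), had 86.6, 83.5, 95.8, 165 and 110 CPM at 40 weeks, against 6.68, 6.94, 55.7, 6.27 and 61.5 CPM at 20 weeks. Animals 411 and 413 stood near the 40-week animals and the other 3 at under 10 CPM (log2 fold change 1.97 ± 0.54, edgeR adjusted p = 0.00804). With only the groups compared Cidec was not called (1.95). Cidea, of the same family, had 15.2, 16.2, 13.9, 25.9 and 13.6 CPM at 40 weeks, against 1.17, 0.404, 6.21, 0.721 and 9.17 CPM at 20 weeks (2.24 ± 0.66, edgeR adjusted p = 0.0152). Plin4, a droplet coat protein, rose by 1.69 ± 0.47, and Pparg, the adipogenic nuclear receptor, by 0.98 ± 0.27. Smaller rises were those of Lipe (0.74) and Pnpla2 (0.67), which cut stored triglyceride, and of Plin3 (0.51) and Fitm2 (0.47). Plin2, the main hepatocyte droplet coat, had 539 to 707 CPM at 40 weeks, against 436 to 691 CPM at 20 weeks (0.13 ± 0.14, edgeR adjusted p = 0.566), and the fatty acid transporter Cd36 was at 0.33 ± 0.27 (edgeR adjusted p = 0.411). Neither passed. Leaving out 1 library ended the calls for Cidea without 261 or 412 (1.96 to 2.0) and Fitm2 without any 1 library but 271, 411, 413 or 523 (0.38 to 0.44). Without animals 261 and 271 the list had 4 calls, Cidec (1.38), Cidea (1.63), Plin4 (1.35) and Pparg (0.77) no longer among them. The clock-adjusted fit had 3, and Cidec (2.16), Cidea (2.72), Pparg (1.06), Lipe (0.28) and Fitm2 (0.19) were not called in it.

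Fatty acid oxidation genes rose in 7 of 30 (23.3%, against 9.34% of all genes), with a median of 0.33. Cpt1a, which carries fatty acids into mitochondria, had 844, 907, 939, 898 and 904 CPM at 40 weeks, against 468, 698, 542, 576 and 628 CPM at 20 weeks. Every 40-week animal was above every 20-week one (log2 fold change 0.62 ± 0.14, edgeR adjusted p = 0.00175). The thioesterases Acot3 (1.86 ± 0.56) and Acot2 (0.97 ± 0.29), the peroxisomal Pex11a (0.57 ± 0.18) and Acaa1a (0.45) and their regulator Ppara (0.36) were among the others called. With single libraries left out, the calls were lost for Acot3 without 261, 412 or 521 (1.57 to 1.70) and Acot2 without 261 or 412 (0.79 to 0.85). The same held for Pex11a without 261, 271, 412, 521 or 522 (0.47 to 0.53) and Ppara without any 1 library but 271 or 412 (0.26 to 0.35). Without animal 261 the count was 2, and without animals 261 and 271 it was also 2, with Acot3 (1.42), Acot2 (0.66), Pex11a (0.43) and Ppara (0.32) not called. In the clock-adjusted fit it was 0, where Cpt1a stood at 0.18, and Acot3 (0.99), Acot2 (0.84), Pex11a (0.51), Acaa1a (0.16) and Ppara (0.09) lost their calls. Fgf21, a PPARα target hormone, had 8.39, 7.03, 10.5, 16.8 and 10.2 CPM at 40 weeks, against 4.33, 4.92, 13, 4.04 and 11.8 CPM at 20 weeks, and did not pass (0.46 ± 0.32, edgeR adjusted p = 0.325).

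Cholesterol synthesis and uptake genes rose in 8 of 25 (32.0%, against 9.34% of all genes), with a median of 0.44, and 23 had folds above 0. Fdft1, squalene synthase, had 73.5, 68.1, 90.3, 75.5 and 74 CPM at 40 weeks, against 31.4, 42.2, 51.2, 44.6 and 50.3 CPM at 20 weeks, without overlap (log2 fold change 0.79 ± 0.17, edgeR adjusted p = 0.000919). Sqle, the squalene epoxidase, had 45.2, 35, 57.4, 57.1 and 50.3 CPM at 40 weeks, against 6.68, 9.43, 41, 8.73 and 30.9 CPM at 20 weeks. Animal 411 lay within the 40-week range and animal 413 just below it (log2 fold change 1.33 ± 0.48, edgeR adjusted p = 0.0461). Msmo1 rose by 0.83 ± 0.23, Mvk, mevalonate kinase, by 0.75 ± 0.18 and the isomerase gene Idi1 by 0.79 ± 0.29. Leaving out 1 library ended the calls for Sqle without any 1 library but 411, 413 or 513 (1.10 to 1.34) and Idi1 without any 1 library but 411, 413 or 513 (0.69 to 0.79). The clock-adjusted fit called 19 of the 25 higher, and the fit without animals 261 and 271 called 3, with Msmo1 (0.71), Sqle (0.85) and Idi1 (0.61) not called.

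Fatty acid synthesis was split, with 2 of 21 called higher (9.52%, against 9.34% of all genes) and 3 lower (14.3%, against 7.85%; median 0.02). The desaturases Fads1 (0.58 ± 0.19) and Fads2 (0.56 ± 0.17) rose, but the calls were lost for Fads1 without any 1 library but 411, 413, 512 or 513 (0.41 to 0.54) and Fads2 without 261, 271, 412 or 521 (0.41 to 0.52). Mlxipl, which encodes the sugar sensor ChREBP, fell by 0.47 ± 0.11, with 320 to 352 CPM at 40 weeks, against 400 to 514 CPM at 20 weeks. Pnpla3, a lipase of lipid droplets, had 12, 12.5, 19.8, 21.1 and 17.5 CPM at 40 weeks, against 41.6, 13.9, 150, 40.9 and 50.3 CPM at 20 weeks. Animal 411 was far above the others, the fold was -1.84 ± 0.62 (edgeR adjusted p = 0.0346), and the value stood at 0.65 in the clock-adjusted fit. The call was lost for Pnpla3 without 411, 512, 513 or 523 (-1.88 to -1.18). The calls of Fads1 (0.33) and Fads2 (0.34) ended without animals 261 and 271, and the clock-adjusted fit did not call Fads1 (0.71), Fads2 (0.55) and Mlxipl (-0.37). Fasn (-0.48 ± 0.38, edgeR adjusted p = 0.409) and Scd1 (0.20 ± 0.17, edgeR adjusted p = 0.455), the fatty acid synthase and the stearoyl desaturase, did not pass.

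Of 22 genes of glucose output and fructose use 5 were called lower (22.7%, against 7.85% of all genes) and 0 higher (against 9.34%), with a median of -0.16. G6pc, glucose-6-phosphatase, had 115, 104, 116, 145 and 149 CPM at 40 weeks, against 543, 179, 409, 209 and 210 CPM at 20 weeks. The ranges were apart, with animals 261 and 411 the highest at 20 weeks (log2 fold change -1.30 ± 0.33, edgeR adjusted p = 0.00442). Pygl, glycogen phosphorylase, fell by 0.44 ± 0.09 and ketohexokinase Khk by 0.34 ± 0.12. Igfbp1, which insulin represses, had 9.37, 17.8, 31.6, 25.5 and 23.2 CPM at 40 weeks, against 252, 13.3, 160, 16.2 and 29.4 CPM at 20 weeks, with animals 261 and 411 above all others (log2 fold change -2.13 ± 0.62, edgeR adjusted p = 0.0136). It lost the call without animal 261 (-1.37) and stood at 0.79 in the clock-adjusted fit, in which the list had 0 calls lower. There G6pc (-0.67), Pygl (-0.29) and Khk (-0.10) were not called. The call was also lost for Khk without 261, 411 or 523 (-0.35 to -0.32), and without animals 261 and 271 for Igfbp1 (-1.68) and Khk (-0.41). Pck1, a rate-controlling enzyme of gluconeogenesis, did not pass (-0.29 ± 0.24, edgeR adjusted p = 0.443).

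Amino acid enzymes were lower in 6 of 30 (20.0%, against 7.85% of all genes), with a median of -0.14 and 23 folds below 0. Gldc, the glycine decarboxylase, had 200 to 261 CPM at 40 weeks, against 299 to 422 CPM at 20 weeks (log2 fold change -0.62 ± 0.10, edgeR adjusted p = 4.86e-05). Kynu of tryptophan breakdown fell by 0.50 ± 0.09, the ornithine carrier Slc25a15 by 0.49 ± 0.12 and Hgd of tyrosine breakdown by 0.35 ± 0.09. Cbs (-0.25) and Bhmt (-0.30) of the methionine cycle were the others called, with Bhmt losing its call without animal 261 (-0.25). The list had 6 to 12 calls lower with single libraries left out, 4 without animals 261 and 271, where Cbs (-0.26) and Bhmt (-0.18) were not called, and 1 in the clock-adjusted fit, where Kynu (-0.30), Slc25a15 (-0.44), Hgd (-0.29), Cbs (-0.20) and Bhmt (-0.33) were not called.

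In bile acid metabolism 5 of 23 were called lower (21.7%, against 7.85% of all genes) and 2 higher (8.7%, near the 9.34% of all genes; median -0.19). Cyp7b1, of the alternative synthesis pathway, had 255, 212, 203, 165 and 181 CPM at 40 weeks, against 688, 607, 278, 550 and 230 CPM at 20 weeks. Animals 411 and 413 were closest to the 40-week values (log2 fold change -1.21 ± 0.34, edgeR adjusted p = 0.0111). Cyp2c70, which makes muricholic acids in mice, fell by 0.79 ± 0.21, and Nr0b2, the bile acid-induced repressor SHP, by 0.89 ± 0.31. Slco1a4, an uptake transporter, rose to 79.8 ± 18.1 CPM at 40 weeks, against 28.8 ± 13.1 CPM at 20 weeks (SD, n = 5 each), a fold of 1.47 ± 0.29 (edgeR adjusted p = 0.000382). Cyp7a1, the rate-limiting enzyme of the classic pathway, had 313, 270, 376, 243 and 358 CPM at 40 weeks, against 166, 196, 110, 84.6 and 318 CPM at 20 weeks, and did not pass (0.84 ± 0.57, edgeR adjusted p = 0.322). Nr0b2 lost its call without 261, 271, 411, 521, 522 or 523 (-0.91 to -0.75). Without animals 261 and 271 the list had 0 calls lower (Cyp7b1 -0.81, Cyp2c70 -0.34, Nr0b2 -0.88), and the clock-adjusted fit had 1, with Cyp7b1 (-1.31), Cyp2c70 (-0.78) and Nr0b2 (-0.36) not called.

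Bile duct cell markers gave the largest share of calls among the lists described here. Of 16 tested, 13 (81.3%, against 9.34% of all genes) were higher at 40 weeks, with a median of 0.91. Spp1, which encodes osteopontin (chromosome 5, 104435118 to 104441050, mm10, plus strand), had 56.5, 71.6, 63.6, 105 and 70.7 CPM at 40 weeks, against 19, 23.8, 35.7, 18.5 and 33.9 CPM at 20 weeks. No animal overlapped (log2 fold change 1.48 ± 0.26, edgeR adjusted p = 0.000114), and the call held in each alternative run. The tight junction genes Cldn7 (1.64 ± 0.40) and Cldn4 (1.64 ± 0.54) and the mucin Muc1 (1.38 ± 0.37) rose at under 3 CPM. Keratins Krt19 (1.09 ± 0.35) and Krt7 (1.01 ± 0.34), Epcam (0.99 ± 0.31) and the chloride channel Cftr (1.22 ± 0.40) were also called, but Sox9, a progenitor factor, was at -0.31 ± 0.22 (edgeR adjusted p = 0.358). The list level was 3.07, 3.38, 3.29, 3.59 and 3.43 at 40 weeks, against 2.04, 2.48, 2.86, 2.17 and 3.09 at 20 weeks, so animal 413 reached the lowest 40-week animal. The call count fell to 1 without animals 261 and 271, to 5 without animal 261, 412 or 522 and to 4 in the clock-adjusted fit. Among the named members the calls were lost for Cldn4 without 261, 271, 412, 522 or 523 (1.33 to 1.54), Krt19 without 261, 412, 521 or 522 (0.86 to 1.03), Krt7 without any 1 library but 413, 512, 513 or 521 (0.78 to 1.0), Epcam without 261, 411, 412 or 522 (0.74 to 0.91) and Cftr without 261, 271, 412, 522 or 523 (0.94 to 1.10). Without animals 261 and 271 Cldn7 (1.36), Cldn4 (1.11), Muc1 (1.22), Krt19 (0.92), Krt7 (0.71), Epcam (0.86) and Cftr (0.84) were not called. The clock-adjusted fit ended the calls of Cldn7 (1.41), Cldn4 (1.18), Krt19 (0.93), Krt7 (0.87), Epcam (0.95) and Cftr (1.09). The 17 markers of the list summed to 659 to 859 CPM at 40 weeks, against 583 to 759 CPM at 20 weeks. In bulk tissue, more cells of a type and more RNA per cell cannot be told apart.

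Matrix genes were called higher in 9 of 39 (23.1%, against 9.34% of all genes), with a median of 0.38, and 36 had folds above 0. The calls were Mmp2 (0.92 ± 0.28) and Mmp14 (0.58), which cut matrix, the elastic fibre genes Eln (0.91 ± 0.30) and Loxl1 (0.90 ± 0.28), the growth factor Tgfb2 (0.88 ± 0.27), Col6a3 (0.78), Thbs2 (0.75), Timp2 (0.47) and Bgn (0.37). Col1a1, the main fibrillar collagen, had 68.9, 84.9, 61.3, 100 and 78.9 CPM at 40 weeks, against 23.1, 23.2, 102, 15.7 and 54.7 CPM at 20 weeks. Animal 411 was the highest of the 10 and animal 412 the lowest, and the fold did not pass (0.85 ± 0.38, edgeR adjusted p = 0.119). Timp1 likewise did not pass (0.70 ± 0.43, edgeR adjusted p = 0.266). The matrix list level was 4.34 to 4.72 at 40 weeks, against 3.71, 3.87, 4.57, 3.62 and 4.50 at 20 weeks. No member was called without animal 261, without animal 412 or without animals 261 and 271 together, and limma voom called 22 higher. The clock-adjusted fit called 1, Mmp14. Single calls were lost for Mmp2 without 261, 412, 522 or 523 (0.75 to 0.82), Mmp14 without any 1 library but 411 or 413 (0.49 to 0.58), Eln without 261, 271, 412, 522 or 523 (0.66 to 0.85) and Loxl1 without 261, 271, 412 or 522 (0.73 to 0.77). The same held for Tgfb2 without 261, 271, 412, 522 or 523 (0.71 to 0.81), Col6a3 without 261, 271, 412 or 522 (0.61 to 0.66), Thbs2 without 261, 271, 412, 522 or 523 (0.56 to 0.71) and Timp2 without 261, 271, 412, 522 or 523 (0.35 to 0.43).

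Stellate cell and fibroblast markers were called higher in 4 of 18 (22.2%, against 9.34% of all genes): Cygb (0.91 ± 0.20), a globin of stellate cells, Dpt (0.91 ± 0.32), Pdgfrb (0.54 ± 0.17) and Pdgfra (0.52 ± 0.17). Cygb had 17.4, 24.4, 22.4, 23.6 and 24.1 CPM at 40 weeks, against 10.2, 9.5, 14.6, 9.16 and 16.1 CPM at 20 weeks, without overlap. The other 3 calls were lost for Dpt without any 1 library but 411, 413, 512 or 513 (0.67 to 0.87), Pdgfrb without 261, 271, 412, 513 or 522 (0.42 to 0.49) and Pdgfra without any 1 library but 271, 413, 512 or 513 (0.40 to 0.49). Only Cygb was called in the clock-adjusted fit (Dpt (0.75), Pdgfrb (0.47) and Pdgfra (0.35) were not) and without animals 261 and 271 (Dpt (0.56), Pdgfrb (0.35) and Pdgfra (0.49) were not). Fetal liver and tumour genes rose in 6 of 23 (26.1%, against 9.34% of all genes), with a median of 0.51. H19, an imprinted non-coding RNA of fetal liver for which antisense reads may not have been kept apart, had 17.8, 27.2, 30.7, 58 and 39.4 CPM at 40 weeks, against 2.72, 3.17, 24.5, 4.26 and 20.1 CPM at 20 weeks (log2 fold change 1.64 ± 0.58, edgeR adjusted p = 0.0409). Animals 411 and 413 lay within the 40-week range or close to it, and the call was lost for H19 without any 1 library but 411, 413, 512 or 513 (1.35 to 1.66). Tspan8 rose by 1.34 ± 0.35, Cd24a by 1.19 ± 0.40, Sox4 by 1.06 and Golm1 by 0.69, while Tff3 (2.48 ± 0.70) rested on animal 523, without which it was not called (1.55). Calls were also lost for Tspan8 without 522 (0.92), Cd24a without 261, 271, 412, 522 or 523 (0.97 to 1.16) and Golm1 without any 1 library but 411 or 413 (0.54 to 0.69). The list had 2 calls without animal 522 or 523 and 2 in the clock-adjusted fit, where H19 (1.70), Cd24a (1.49), Sox4 (0.72) and Golm1 (0.90) were not called. It had 1 without animals 261 and 271, where H19 (1.07), Tspan8 (0.99), Cd24a (0.90), Sox4 (0.73) and Golm1 (0.45) were not called. The tumour markers Afp (0.24 ± 0.25, edgeR adjusted p = 0.542) and Gpc3 (-0.12 ± 0.30, edgeR adjusted p = 0.814) did not pass.

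Immune markers gave few calls in the main fit. Of 16 general macrophage markers edgeR called 0, with a median of 0.42 and 14 folds above 0. At an unadjusted p under 0.05 the count was 2 higher, DESeq2 called 0, limma voom called 5 higher, and the fit of only the groups compared called 4 higher. Their sum, without TMM factors, was 840 to 1270 CPM at 40 weeks, against 596 to 835 CPM at 20 weeks. The ranges on this scale came close without overlap. Of 15 dendritic cell markers edgeR and DESeq2 called 0. The count was 5 higher at an unadjusted p under 0.05, with limma voom and with only the groups compared. The dendritic markers summed to 640 to 992 CPM at 40 weeks, against 405 to 673 CPM at 20 weeks, with overlap. Of 18 lipid-associated macrophage markers 3 (16.7%, against 9.34% of all genes) were higher, the shared Spp1, Cd63 (0.74 ± 0.23) and Cstb (0.67 ± 0.17). Gpnmb, a glycoprotein of lipid-laden macrophages, had 30.6, 37.1, 35.2, 32.9 and 35.2 CPM at 40 weeks, against 33.7, 34.4, 36.3, 25.3 and 34.1 CPM at 20 weeks (0.06 ± 0.42, edgeR adjusted p = 0.942), and Trem2 was at 0.26 ± 0.38 (edgeR adjusted p = 0.678). Chemokine genes rose in 4 of 29 (13.8%, against 9.34% of all genes), namely Cx3cl1, Ltb, Cxcl16 and Cxcl12. Cx3cl1 had 4.03, 5.54, 4.89, 4.92 and 5.3 CPM at 40 weeks, against 1.54, 1.42, 1.96, 1.23 and 2.88 CPM at 20 weeks (log2 fold change 1.44 ± 0.26, edgeR adjusted p = 0.000127). Calls were lost for Ltb without 261, 271, 412, 521 or 522 (1.11 to 1.19), Cxcl16 without 261, 271, 412, 521 or 523 (0.50 to 0.57), Cxcl12 without any 1 library (0.22 to 0.27) and Cd63 without 261, 271, 412, 522 or 523 (0.59 to 0.68). The chemokine list had 1 call both in the clock-adjusted fit, where Ltb (1.41), Cxcl16 (0.63) and Cxcl12 (0.23) were not called, and without animals 261 and 271, where Ltb (0.95), Cxcl16 (0.50), Cxcl12 (0.23), Cd63 (0.47) and Cstb (0.58) were not called. Of 30 cell cycle genes edgeR called 0 (unadjusted 1 higher, DESeq2 0, limma voom 1 higher), and Mki67 had 12.2 to 28.7 CPM at 40 weeks, against 10.1 to 31.9 CPM at 20 weeks.

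Sex-biased liver genes also gave calls. Of 28 male-biased genes 10 were called lower (35.7%, against 7.85% of all genes), 26 had folds below 0 and the median was -0.72. Elovl3, a fatty acid elongase, had 153, 130, 101, 114 and 114 CPM at 40 weeks, against 702, 280, 441, 557 and 253 CPM at 20 weeks, without overlap (log2 fold change -1.87 ± 0.38, edgeR adjusted p = 0.000547). Hsd3b5, a male-specific steroid dehydrogenase, had 96.8, 74.2, 77.9, 40.8 and 59.8 CPM at 40 weeks, against 337, 381, 149, 281 and 139 CPM at 20 weeks (-1.88 ± 0.57, edgeR adjusted p = 0.0188). Mup21 fell by 1.28 ± 0.32, Selenbp2 by 1.69 ± 0.59 and Egfr by 1.05 ± 0.38, with the calls lost for Selenbp2 without any 1 library but 411, 413 or 512 (-1.72 to -1.33) and Egfr without any 1 library but 411, 412 or 413 (-1.12 to -0.86). Moxd1 had 37.8, 25.7, 25.2, 24.1 and 29.7 CPM at 40 weeks, against 259, 111, 27.7, 191 and 13.1 CPM at 20 weeks, where animal 411 lay within and animal 413 below the 40-week range, and it did not pass (-2.08 ± 0.92, edgeR adjusted p = 0.11). Of 33 female-biased genes 9 were higher (27.3%, against 9.34% of all genes) and 2 lower (6.06%, near the 7.85% of all genes). Their median was 0.60, or 0.69 without the 1 member that had almost no counts in either group. Abcd2, a peroxisomal fatty acid transporter, had 14.5, 20.3, 23.4, 26.3 and 21.5 CPM at 40 weeks, against 2.79, 3.98, 10.8, 2.88 and 15.2 CPM at 20 weeks (log2 fold change 1.54 ± 0.36, edgeR adjusted p = 0.00234), whereas Cyp2c40 (-1.55 ± 0.36) and Cyp2c69 (-1.79 ± 0.48) fell. Without animals 261 and 271, 2 male-biased genes were lower and 2 female-biased genes higher, and without animal 261 alone 6 and 4. Those animals' absence ended the calls of Hsd3b5 (-1.46), Mup21 (-1.02), Selenbp2 (-1.07), Egfr (-0.51) and Abcd2 (1.11). The clock-adjusted fit had 3 male-biased genes lower and 6 female-biased genes higher, with Elovl3 (-1.45), Hsd3b5 (-1.84), Selenbp2 (-1.83), Egfr (-0.92) and Cyp2c69 (-1.61) not called.

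**Figure D3:**
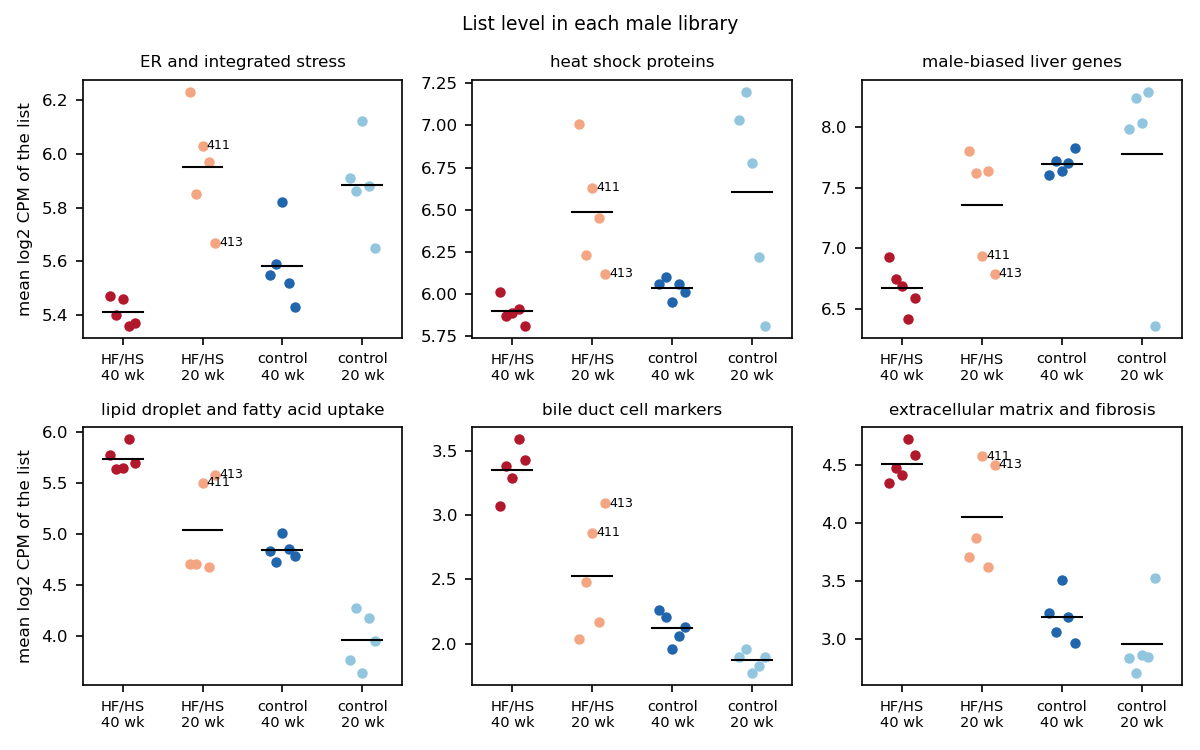
List level, the mean log2 CPM of a list's members, in each male library (points) with group means (lines), for 6 lists, HF/HS males at 40 and 20 weeks and control males at 40 and 20 weeks. The HF/HS 40-week libraries lie below all HF/HS 20-week libraries for ER and heat shock genes, while animals 411 and 413 (numbered) lie beside the 40-week libraries for lipid droplet, matrix and male-biased genes.

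Over the same interval, 3270 genes (23.1%) were called in control males, 10.4% of all genes higher and 12.7% lower. Of the 2437 genes called in HF/HS males, 976 were called in the same direction there and 26 in the opposite one. Control males had 2 ER list members higher (7.41%) and 14 lower (51.9%), 9 heat shock genes lower (50%), 12 lipid droplet genes higher (57.1%) and 2 lower (9.52%), and 15 fatty acid oxidation genes higher (50%). For the matrix list they had 4 higher (10.3%, near the share of all genes) and 1 lower (2.56%), and for the bile duct list 1 higher (6.25%). Cidec, for example, had 9.12, 10.4, 17, 9.14 and 13.3 CPM in control males at 40 weeks, against 0.644, 2.46, 0.494, 3.74 and 1.2 CPM at 20 weeks (2.87 ± 0.73, edgeR adjusted p = 0.00329), a difference between the diets' changes of -0.90 ± 0.92 (edgeR adjusted p = 0.66). The control library of animal 373 at 20 weeks stood apart from its group on the second component (-72.88), and it enters each of these values.

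**Figure D4:**
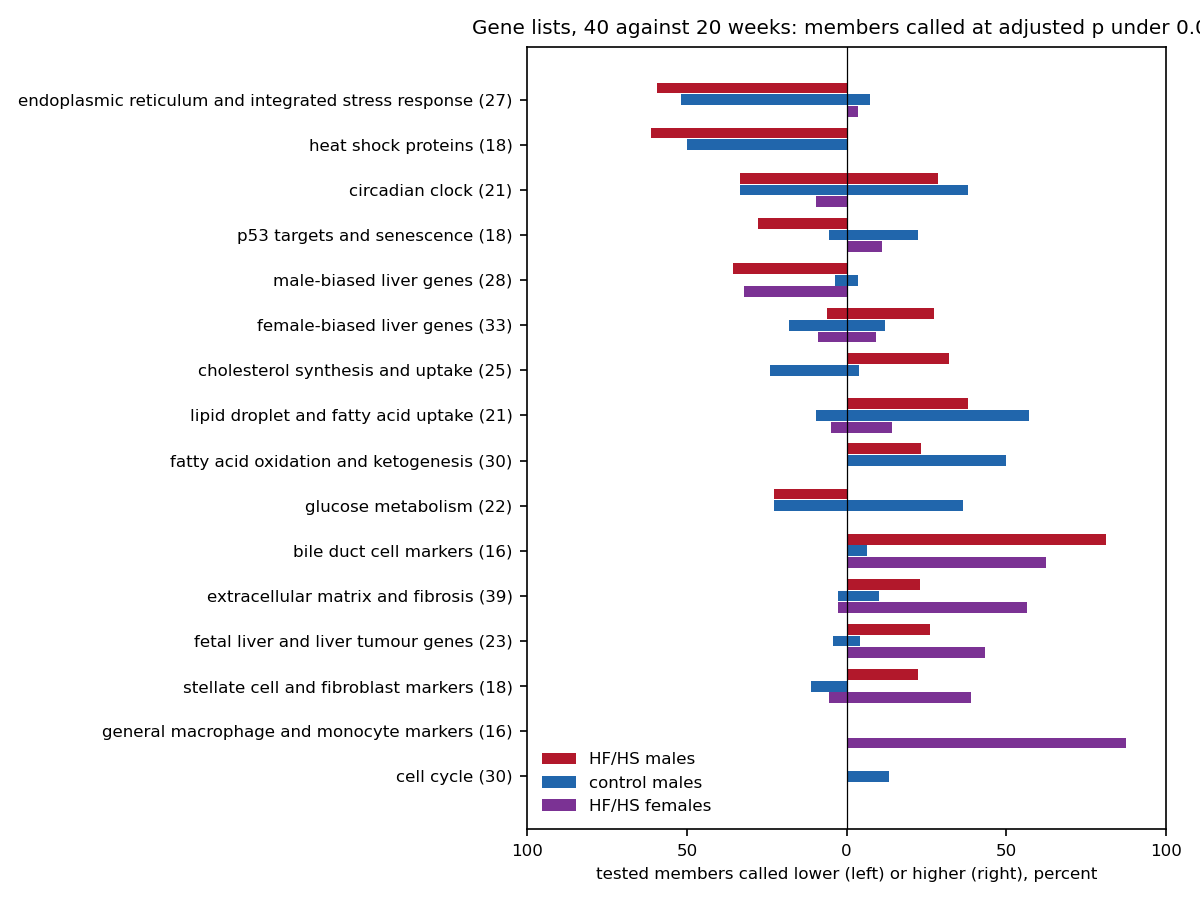
Share of the tested members of each list (number in brackets) called lower (left) or higher (right), 40 against 20 weeks, in HF/HS males, control males and HF/HS females. ER, heat shock and clock genes show calls in both groups of males, bile duct markers in HF/HS males (81.3%) and HF/HS females (62.5%), and macrophage markers in HF/HS females (87.5%) and in neither group of males (0%).

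The change itself differed between HF/HS and control males for 300 genes (2.12%), 180 with a larger value on HF/HS (1.27%) and 120 with a smaller one (0.846%). With small non-coding RNA genes removed before scaling the split was 107 and 188, and with RLE size factors 142 and 142. The count depended on single libraries: it was 140 without control 40-week animal 493 and 569 without control 20-week animal 182. It was 143 to 192 without any 1 of HF/HS animals 412, 521, 522 or 523 or control animals 371, 373, 492 or 501, and 512 without control animal 181. Cholesterol genes differed in 7 of 25 (28.0%), all with a larger value on HF/HS. Msmo1, a sterol demethylation enzyme, had 89.3, 78.9, 124, 98.5 and 102 CPM in HF/HS males at 40 weeks, against 48.2, 49.1, 67.7, 56.8 and 54.4 CPM at 20 weeks. It had 64.6, 50.8, 65.1, 98.6 and 53.2 CPM in control males at 40 weeks, against 108, 58.6, 146, 193 and 91.7 CPM at 20 weeks (-0.84 ± 0.23), so the difference was 1.67 ± 0.32 (edgeR adjusted p = 0.00326). That of Mvk was 1.51 ± 0.25 (edgeR adjusted p = 0.000908), that of Fdft1 1.13 ± 0.24, of Idi1 1.41 ± 0.40, of Insig1 1.14 ± 0.32 and of Sqle 2.49 ± 0.67. The difference was no longer called for Idi1 without any 1 library but 181, 182, 373, 413 or 502 (1.10 to 1.49), Insig1 without any 1 library but 182, 373, 411 or 512 (0.94 to 1.14) and Sqle without any 1 library but 181, 182, 411, 413, 502, 512 or 513 (2.25 to 2.47). With no filter Idi1 (1.38), Insig1 (1.10) and Sqle (2.46) were not called, and with only the groups compared Idi1 (1.39), Insig1 (1.11) and Sqle (2.48) were not. Insig1 (0.89) also lost the call without 20-week animals numbered under 300, and Idi1 with RLE size factors (1.40). With small non-coding RNA genes removed Idi1 (1.37) and Insig1 (1.09) were not called. In HF/HS males the cholesterol genes named here were higher at 40 weeks or, for Insig1, not called, and in control males Msmo1, Mvk and Insig1 were lower at 40 weeks. Of 22 glucose genes, 5 (22.7%) differed with a smaller value on HF/HS and 1 (4.55%) with a larger one. Khk fell in HF/HS males and rose in control males (0.32 ± 0.12), with a difference of -0.66 ± 0.17.

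The macrophage gene Gpnmb had the widest diet difference among the named genes. It lay at 30.6 to 37.1 CPM at 40 weeks and 25.3 to 36.3 CPM at 20 weeks in HF/HS males. The control libraries held 352 counts of it at 40 weeks and 8 at 20 weeks, so its difference was -5.21 ± 1.13 (edgeR adjusted p = 0.00914). Mmp12, macrophage elastase, had 36.5 to 43.6 CPM in HF/HS males at 40 weeks, against 28.4 to 42 CPM at 20 weeks. In control males it had 3.28, 3.31, 16.7, 3.72 and 2.91 CPM at 40 weeks, against 0.358, 0.224, 0.353, 0.689 and 1.2 CPM at 20 weeks, a difference of -3.15 ± 0.86 (edgeR adjusted p = 0.0395). Myc, a growth transcription factor, had 12.5, 9.66, 18.4, 11 and 11 CPM in HF/HS males at 40 weeks, against 11.7, 4.18, 10.2, 11.3 and 12.1 CPM at 20 weeks, and 5.03, 8.49, 6.34, 5.31 and 5.01 CPM in control males at 40 weeks, against 72.9, 25.2, 19.4, 28.3 and 5.32 CPM at 20 weeks. Myc fell in control males (-2.33 ± 0.33), was not called in HF/HS males (0.34 ± 0.32, edgeR adjusted p = 0.498), and the difference was 2.66 ± 0.46 (edgeR adjusted p = 0.00109). Others with a larger value on HF/HS were Rims4 (4.09 ± 0.93), Tcf24 (3.99 ± 0.78), Gipc2 (3.52 ± 0.96), Tff3 (3.39 ± 0.89), Epdr1 (2.73 ± 0.76) and, among bile duct markers, Spp1 (1.34 ± 0.38). With a smaller value were A4gnt (-3.52 ± 0.86), Atp2b2 (-3.21 ± 0.72), Cyp2c53-ps (-2.76 ± 0.73), Obp2a (-2.70 ± 0.72) and Cyp2c29 (-1.19 ± 0.24). The call was lost for Rims4 without 373 (2.10), A4gnt without 411 (-3.10) and Mmp12 without 371, 372, 412, 501, 521, 522 or 523 (-3.26 to -2.36). It was also lost for Gipc2 without any 1 library but 181, 182, 371, 372, 411, 413, 502 or 521 (2.16 to 3.63), Tff3 without any 1 library but 181, 182, 411, 413, 502, 512, 513, 521 or 522 (2.45 to 3.34), Epdr1 without any 1 library but 181, 182, 411, 413 or 521 (2.31 to 2.72) and Spp1 without any 1 library but 181, 182, 411, 413 or 512 (1.13 to 1.34). The same held for Cyp2c53-ps without 261, 371, 412, 492, 493, 521, 522 or 523 (-2.86 to -2.55) and Obp2a without 261, 371, 372, 412, 493, 501, 521, 522 or 523 (-2.78 to -2.50). The differences of Gpnmb, Myc, Tcf24, Atp2b2 and Cyp2c29 were called whichever 1 library was left out, but limma voom did not call Gpnmb (-4.49, adjusted p = 0.273) or Atp2b2 (-2.99, adjusted p = 0.077). With only the groups compared Tcf24 (3.98), Cyp2c29 (-1.22), Rims4 (4.07), Tff3 (3.37), Gipc2 (3.51), A4gnt (-3.54) and Cyp2c53-ps (-2.78) were not called. With no filter Mmp12 (-3.19), Gipc2 (3.49), Epdr1 (2.69) and Spp1 (1.30) were not, nor was Spp1 (1.29) with small non-coding RNA genes removed. Other calls lost were those of Mmp12 (-2.69) and Spp1 (1.28) without 20-week animals numbered under 300, of Gipc2 (3.29) and Epdr1 (2.57) in the clock-adjusted fit and of Rims4 (2.96), A4gnt (-3.62), Mmp12 (-2.99), Tff3 (2.55) and Gipc2 (2.71) with voom.

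**Figure D5:**
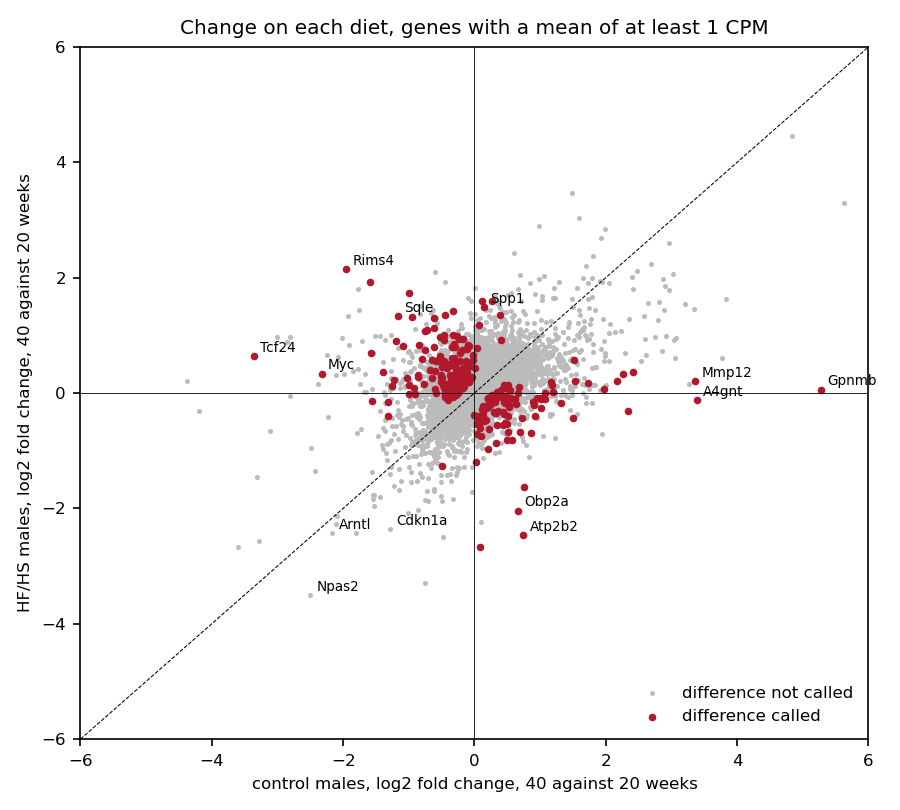
Log2 fold change, 40 against 20 weeks, in HF/HS males (vertical) and control males (horizontal) for genes whose mean reached 1 CPM, with genes whose change differed between the diets in red and the diagonal dashed. Gpnmb, Mmp12 and A4gnt lie far right near 0 on the vertical axis, Tcf24 and Myc lie left, and Arntl and Npas2 lie low on both axes.

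In HF/HS females 2161 genes (15.2%) were called over the interval, 1299 higher (9.16%) and 862 lower (6.08%), or 1163 and 1224 with small non-coding RNA genes removed, and 1358 in all without female animal 482. Of the genes called in HF/HS males, 538 were called in the same direction in females and 14 in the opposite one. Bile duct markers rose in 10 of 16 there (62.5%) and matrix genes in 22 of 39 (56.4%), and Spp1 moved by 1.46 ± 0.27 in females and 1.48 ± 0.26 in males. General macrophage markers rose in 14 of 16 in females (87.5%). Their sum at 20 weeks was 596 to 835 CPM in males, against 381 to 531 CPM in females, and at 40 weeks it was 840 to 1270 CPM in males, against 755 to 1060 CPM in females. The sex difference of these 16 markers was called by edgeR for 0, against 1.9% of all genes, with a median of -0.71.

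The change differed between HF/HS males and HF/HS females for 270 genes (1.9%), 144 with a larger value in males (1.02%) and 126 with a smaller one (0.889%), or 127 and 170 with RLE size factors. Without male animal 261 the count was 69, and in the clock-adjusted fit 17. It was 89 to 177 without any 1 of male animals 513, 521 or 523 or female animals 301, 302, 471, 481 or 482. ER stress genes made up 9 of the 126 (33.3% of their list), among them Creld2 (-1.55 ± 0.40, edgeR adjusted p = 0.0299), Manf (-1.40 ± 0.28, edgeR adjusted p = 0.00532) and Hspa5 (-1.06 ± 0.22, edgeR adjusted p = 0.00694). Creld2 had 30.6, 36.5, 26.6, 23.2 and 26.6 CPM in females at 40 weeks, against 26.8, 33.6, 26.4, 55.9 and 25.6 CPM at 20 weeks, with overlapping ranges and a fold of -0.23 ± 0.28. Without male animal 261, 7 of the 9 (Creld2, Sdf2l1, Dnajb11, Dnajc3, Hsp90b1, Pdia4 and Pdia6) were not called. Each of these was also lost without male animal 412, 513 or 523 or female animal 302, 471 or 473, and the same 7 were not called without 20-week animals numbered under 300. The clock-adjusted fit called 0 of the 9 (Manf -1.19, Hspa5 -0.94). Of the clock genes, Npas2 (-3.19 ± 0.58) and Arntl (-2.23 ± 0.32) had smaller values in males, and Per2 (1.13 ± 0.28), Per3 (2.28 ± 0.57) and Usp2 (1.90 ± 0.51) larger ones. With the clock adjustment Npas2 stood at -1.30, Per2 at 0.89, Per3 at 0.21, Usp2 at 0.98 and Cyp4a12a at 1.77, none of them called. Leaving out 1 library ended the calls for Creld2 without 261, 302, 412, 422, 471, 473, 513 or 523 (-1.54 to -1.41), Per2 without 261, 302, 471, 481, 513, 521 or 523 (1.01 to 1.13), Per3 without 261, 302, 411, 471, 481, 482, 513, 521 or 523 (1.83 to 2.29), Usp2 without any 1 library but 271, 292, 301, 412, 473, 512 or 522 (1.72 to 1.97) and Cyp4a12a without 261, 301, 421, 471, 481 or 482 (1.66 to 1.90). Cyp4a12b (2.57 ± 0.46) and Cyp4a12a (1.91 ± 0.48), male-biased fatty acid hydroxylases, fell in females (-2.71 ± 0.35 and -2.15 ± 0.41) and not detectably in males. Gpnmb differed by -3.28 ± 0.66 (edgeR adjusted p = 0.00555), with 21.8, 15.8, 28.3, 51.3 and 41.8 CPM in females at 40 weeks, against 1.09, 2.97, 4.94, 2.18 and 4.01 CPM at 20 weeks.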

How the data were processed

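Livers of CC042/GeniUnc mice were flash frozen, and total RNA was sequenced after removal of ribosomal RNA with a kit that marks strand, per the labels' protocols. The authors deposited 1 table of whole-number counts per gene and library. The build is mm10, per the submitters' processing notes. For the aligner, counting tool, annotation and use of strand the sources used here give nothing. Symbols that the table holds as dates (26 entries, 0.201% of counts) were kept and not named.

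From these deposited counts, library sizes were scaled by TMM, low genes were removed with filterByExpr (minimum count 10, minimum total 15), and edgeR 4.0.16 (R 4.3.3) was run over all 60 libraries with 1 mean per group of 5 (12 groups) and robust quasi-likelihood tests. Calls were made at 0.05 after Benjamini-Hochberg adjustment across the 14180 genes. The difference of the change between diets or sexes was tested as an interaction. The SE is the log2 fold change divided by the square root of its F statistic. List levels used log2 CPM with a prior count of 2. Sums of marker lists used library totals without TMM factors. The replicates are single animals. Each test sets a difference of group means against an estimate of the spread between animals that all 12 groups share. It is thus not the spread of only the animals compared. No pair of libraries in a group agreed within counting error (lowest chi-square per degree of freedom 3.43). The scripts were tested on simulated data.

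Alternatives were RLE size factors, DESeq2 1.42.0, voom with sample weights in limma 3.58.1, no filter, removal of small non-coding RNA genes, the clock component as a covariate, 20-week animals with numbers under 300 left out, only the groups compared, and each library left out in turn. Named genes were the 12 largest rises and 12 largest falls among called genes of at least 1 mean CPM whose ranges did not overlap, up to 4 called members per list, a panel of 32 genes, and the 6 (diet) or 4 (sex) largest differences in each direction. Further list members (such as Hspa5, Hyou1, Clock, Cry1, Mvk, Krt19, Epcam, Sox9, Atf4 and Insig1) were named after their values were seen. A few genes are not reported here by name, but list counts include them. The gene lists and the choice of groups were made with earlier results of these data known. Promoter sequences came from a RefSeq table on GRCm38.p6, matched by symbol.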

Additional observations from a re-analysis of the deposited data

Results flagged for a closer look

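For 17 of 142 named genes 1 animal of the 5 HF/HS males at 40 weeks lay far from the other 4, by Dixon's ratio (its gap to the nearest animal over the group's range, critical value 0.71). Chance gives such a value in about 1 in 20 groups. Animal 512 was the highest for Cstb (ratio 0.863), Gsta1 (0.856), Cfd (0.85), Nqo1 (0.85), Sult5a1 (0.845), Hnf4a (0.839), Ubd (0.823), Cyp2a5 (0.781) and Hmox1 (0.725), and the lowest for Cygb (0.714). Animal 523 was the highest for Tff3 (0.879) and the lowest for A4gnt (0.718). Animal 522 was the highest for Plin2 (0.804), Cidea (0.789) and Sdcbp2 (0.725). Animal 513 was the highest for Gpc3 (0.741) and the lowest for Nfil3 (0.721). At 20 weeks 8 of the 142 genes showed such an animal, about the share that chance gives. Animal 261 was the highest for the acute phase genes Saa1 (0.907) and Lcn2 (0.834) and for the ribosomal protein genes Rps6 (0.725) and Rpl4 (0.712). Animal 413 was the highest for Acot3 (0.75) and animal 411 for Pnpla3 (0.733), while animal 412 was the lowest for Gpnmb (0.764) and animal 271 for Myc (0.76).

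The change from 20 to 40 weeks differed between HF/HS and control males, by the interaction test, for 19 named genes. On the log2 scale the difference (HF/HS minus control) was 4.09 for Rims4, 3.99 for Tcf24, 3.52 for Gipc2, 3.39 for Tff3, 2.73 for Epdr1 and 2.66 for Myc. Cholesterol genes followed, with 2.49 for Sqle, 1.67 for Msmo1 and 1.13 for Fdft1, and Spp1 was at 1.34. It was -5.21 for Gpnmb, -3.52 for A4gnt, -3.21 for Atp2b2, -3.15 for Mmp12, -2.76 for Cyp2c53-ps and -2.70 for Obp2a. Smaller negative differences were those of Cyp2c29 (-1.19), Sesn2 (-1.03) and Khk (-0.66). That of Sesn2 was not called without control animal 501 (-0.96) or HF/HS animal 411 (-0.95).

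Between HF/HS males and HF/HS females the change differed for 16 named genes. The difference (males minus females) was -3.28 for Gpnmb, -3.19 for Npas2, -2.31 for Atp2b2, -2.23 for Arntl, -1.55 for Creld2, -1.40 for Manf and -0.64 for Ccng1. It was 2.85 for Tcf24, 2.57 for Cyp4a12b, 2.28 for Per3, 2.04 for Cyp2c54, 2.02 for Cyp2a5, 1.91 for Cyp4a12a, 1.90 for Usp2, 1.13 for Per2 and 0.94 for Por. Several of these calls were lost when 1 library was left out. The number of such fits was 15 for Cyp2c54 (1.85 to 2.12) and 15 for Atp2b2 (-2.42 to -2.01). It was 12 for Ccng1 (-0.66 to -0.59), 10 for Tcf24 (2.65 to 2.91) and 9 for Por (0.83 to 0.95). Cyp2a5 lost the call without 261 or 512 (1.41 to 1.82). In the clock-adjusted fit 17 genes in all differed between the sexes.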

How the results depend on the processing

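No paired analysis was possible because the animal numbers differ in every group. The count of genes called between 40 and 20 weeks in HF/HS males (2437) was 3967 with limma voom, 843 with the clock component and 1034 without 20-week animals numbered under 300, and 1477 to 2979 with single libraries left out. The other settings gave 2168 to 2996. The difference between diets (300) was 457 with DESeq2, 810 with voom, 188 with no filter and 755 without those animals, and 140 to 569 with single libraries left out. The difference between sexes (270) was 536 with DESeq2, 1068 with voom, 155 with no filter, 17 with the clock component, 173 without those animals, 550 with only the groups compared, and 69 to 354 with single libraries left out. The control male count (3270) was 1040 with the clock component and 2112 with only the groups compared (2478 to 3313 with single libraries left out), and the HF/HS female count (2161) was 3934 with voom (1358 to 2623). The cause of these shifts was not tested. Split by direction, the diet difference had 74 higher and 114 lower with no filter, and 80 and 155 with only the groups compared. The main comparison had 943 and 1225 with no filter and 397 and 637 without animals numbered under 300. With single libraries left out it had 611 to 1271 higher and 866 to 1708 lower, with more lower genes each time. The median log2 change of all genes moved by under 0.1 in every setting.

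Of 155 values of named genes, 76 kept direction and call with the clock component and 90 without the animals numbered under 300, against 125 to 153 in the other settings. Signs turned with the clock component for Pnpla3 (0.65), Igfbp1 (0.79), Hspa1a (0.0801), Dnajb1 (0.000616), Mmp12 (-0.21), Gpnmb (-0.30), Cyp7a1 (-0.48), Fasn (0.63) and Dbp (-1.11), and among further named list members for Per3 (-0.09) and Tef (-0.17). Without animals numbered under 300 they turned for Plin2 (-0.0254), Mki67 (-0.26), Gpc3 (0.0663) and Mup20 (0.0896). With single libraries left out, Gpnmb lay between -0.0517 and 0.0656, Mki67 between -0.15 and 0.34, and Hmox1 between -0.0263 and 0.14. Of 111 called named genes, 43 were not called without animal 261, 33 without animal 412, 26 without 522 or without 523, 23 without 271, 20 without 521, 12 without 411, 9 without 513, 8 without 512 and 5 without 413. Depth limits genes under 1 CPM such as Cldn4, and with 5 animals a group the intervals of single genes are wide.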

Other observations

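Among lists that gave few calls in HF/HS males, xenobiotic enzymes had 2 of 25 higher (8.0%, against 9.34% of all genes) and 2 lower (8.0%, against 7.85%; median -0.07). Cyp2a5, a coumarin hydroxylase, had 552, 210, 144, 114 and 149 CPM at 40 weeks, against 31.6, 134, 71.2, 74.7 and 59.1 CPM at 20 weeks (log2 fold change 1.66 ± 0.34, edgeR adjusted p = 0.000566). The ranges overlapped, with animal 522 at 40 weeks below animal 271 at 20 weeks. Por, the electron donor of cytochromes P450, rose by 0.76 ± 0.17, and Cyp2c29 fell by 0.86 ± 0.17. In the clock-adjusted fit Por (0.19) and Cyp2a5 (1.15) were not called. Of 22 NRF2 targets 3 (13.6%, against 9.34% of all genes) were higher. They were Gsta1 (1.46 ± 0.49), Gpx3 (1.30 ± 0.47) and Nqo1 (0.81 ± 0.26), and the calls were lost for Gsta1 without 261, 411, 412, 413 or 512 (0.42 to 1.42), Gpx3 without any 1 library but 411 or 413 (1.11 to 1.36) and Nqo1 without 261, 412, 413 or 512 (0.49 to 0.72). Without animals 261 and 271 these 3 stood at Gsta1 (1.49), Gpx3 (1.0) and Nqo1 (0.80) and were not called, and the clock-adjusted fit did not call Gsta1 (1.36), Gpx3 (1.80) and Nqo1 (0.78). Animal 512 held the highest Gsta1 and Nqo1, with 13.8, 6.15, 6.35, 7.28 and 6.13 CPM of Nqo1 at 40 weeks, against 2.06, 6.94, 6.28, 3.68 and 3.6 CPM at 20 weeks. Hmox1, haem oxygenase, did not pass (0.11 ± 0.22, edgeR adjusted p = 0.773).

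Interferon genes had 1 of 31 higher (3.23%, against 9.34% of all genes) and 2 lower (6.45%, against 7.85%). Ifi27 rose by 0.54 ± 0.14, and Oas2 (-0.69 ± 0.25) and Mx2 (-0.62 ± 0.20) fell. The last 2 calls were lost for Oas2 without any 1 library but 271, 413 or 523 (-0.72 to -0.65) and Mx2 without 261, 412 or 522 (-0.59 to -0.55). Neither was called in the clock-adjusted fit (-0.38 and -0.64) or without animals 261 and 271 (-0.74 and -0.52). Of 27 acute phase genes 1 was lower (3.7%, against 7.85% of all genes). It was Serpina3m (-0.45 ± 0.15), whose call was lost without animal 261 (-0.40), in the clock-adjusted fit (-0.35) and without animals 261 and 271 (-0.34). Saa1, serum amyloid A, had 350, 248, 229, 263 and 270 CPM at 40 weeks, against 447, 178, 185, 203 and 189 CPM at 20 weeks, and Lcn2 had 338, 235, 208, 220 and 268 CPM at 40 weeks, against 255, 104, 112, 129 and 115 CPM at 20 weeks. Animal 261 was far above the other 20-week animals for both, and neither passed (0.18 ± 0.80 and 0.83 ± 0.78, edgeR adjusted p = 0.905 and 0.494). Of the hepatocyte markers 2 of 18 were lower (11.1%, against 7.85% of all genes). Among them was the nuclear receptor gene Hnf4a (-0.41 ± 0.10, and -0.28 and not called without animals 261 and 271). Stat5b, which transmits growth hormone signals, fell by 0.27 ± 0.07 (-0.13 and not called in the clock-adjusted fit). Cyp4a14, a PPARα target, was at 0.92 ± 0.65 (edgeR adjusted p = 0.343) and Mup20 at -0.17 ± 0.30 (edgeR adjusted p = 0.737).

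The first component of the clock genes lay at -0.60 to -0.12 in the 5 HF/HS male livers of 60 weeks, which enter no comparison here, against 1.58 to 1.91 at 40 weeks and -0.94 to 1.46 at 20 weeks.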
